A study of Mus musculus with 66 samples.

Results

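Gene expression in the hippocampus was compared between 5 and 3 months after injection of Alzheimer's disease brain extract in the older of a pair of mouse cohorts. The 7 libraries labelled 12 months of age, AD extract and 5 months post injection (mpi) were set against the 6 libraries with the same age label, AD extract and 3 mpi, so that 13 of the 66 libraries of the series make up the comparison. Each library was placed in its group by its labels, and all genes were examined.

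The mice were C57BL/6, an inbred laboratory strain, and the libraries were made from polyadenylated hippocampal RNA. Animals of each cohort received brain extract of either Alzheimer's disease (AD) or control (Ctrl) origin, in a study of seeded tauopathy. The other libraries of the 12-month cohort serve here as background: 7 Ctrl libraries at 5 mpi and 6 Ctrl libraries at 3 mpi, which share no library with the AD comparison, and 6 AD and 5 Ctrl libraries at 1 mpi. The labels do not say whether 12 months is the age at injection or at collection, at what hour mice were collected, or whether every library came from its own mouse. The p-values therefore reflect the spread among libraries. Animals at 5 mpi were also either older at collection or younger at injection than those at 3 mpi, so time since injection and age cannot be told apart in either extract.

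Misfolded tau introduced into a brain can seed misfolding of the tau that the host makes, and the aggregates then reach connected regions over months. The hippocampus, which serves memory, is among the regions reached by tau early in Alzheimer's disease. Hippocampal cells also run the circadian clock, a transcriptional loop in which CLOCK and BMAL1 drive genes through the E-box sequence CACGTG, the PER and CRY proteins repress that drive, and the REV-ERB receptors NR1D1 and NR1D2 repress the BMAL1 gene Arntl. Transcripts of this loop rise and fall over each day.

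Depth was 42462638 to 58676053 reads assigned to genes per library over the 13 libraries. Levels below are the deposited values, read counts scaled to library size (RPM) and divided by a further factor per library. Markers of hippocampal cells were present in all 13 libraries, with Slc17a7, the vesicular glutamate transporter of excitatory neurons, at 833 to 1063 in 5 mpi AD libraries and 839 to 1007 in 3 mpi AD libraries. Prox1, a dentate granule cell factor, lay at 75.9 to 148 in 5 mpi AD libraries and 57.0 to 121 in 3 mpi AD libraries. Choroid plexus genes, which mark a tissue beside the hippocampus, varied among libraries of both groups: Ttr lay at 133 to 6543 in 5 mpi AD libraries and 162 to 9329 in 3 mpi AD libraries, and the summed level of the 20 choroid plexus genes tested at 370 to 8303 and 420 to 11696. Libraries with high Xist numbered 4 of 7 at 5 mpi and 3 of 6 at 3 mpi, the others having high Y-linked genes.

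Few genes passed the threshold between 3 and 5 mpi after AD extract. Of 20084 genes tested, 39 differed (0.194%; limma, Benjamini-Hochberg adjusted p under 0.05), 29 higher at 5 mpi (0.144%) and 10 lower (0.0498%). The lower genes were led by 4 components of the circadian clock, Dbp, Ciart, Nr1d1 and Nr1d2, and the higher genes were mostly processed pseudogenes and other genes with near-identical copies elsewhere in the genome. At an unadjusted p under 0.05, 1830 genes differed (9.11%), 978 higher (4.87%) and 852 lower (4.24%), where chance gives 1004.2. Libraries of the 2 times did not overlap for 67 genes (0.334%), 35 with all 5 mpi AD libraries above all 3 mpi AD libraries and 32 with all below (0.174% and 0.159%), and 17 of the 39 genes that passed were among them. The edgeR quasi-likelihood test on recovered reads called 25 genes and DESeq2 67, and the limma fit with only the groups compared called 6.

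The 4 clock genes are shown first, since they were the lower genes with the smallest adjusted p. The RefSeq promoter windows of the 4 genes (build GRCm38.p6, 250 bases before to 50 after the annotated start) are printed with matches to 4 motifs in capitals: the E-box CACGTG, its variant CACGTT, the REV-ERB and ROR core AGGTCA, and the D-box TTATGTAA, each searched on both strands, with no overlap between matches. Ciart held 3 copies of CACGTG, at 116, 58 and 44 bases before its start, Nr1d1 held 1 CACGTT in reverse, Nr1d2 held 1 AGGTCA, and the Dbp window held none of the 4.
Dbp promoter, chr7:45704997-45705296, plus strand: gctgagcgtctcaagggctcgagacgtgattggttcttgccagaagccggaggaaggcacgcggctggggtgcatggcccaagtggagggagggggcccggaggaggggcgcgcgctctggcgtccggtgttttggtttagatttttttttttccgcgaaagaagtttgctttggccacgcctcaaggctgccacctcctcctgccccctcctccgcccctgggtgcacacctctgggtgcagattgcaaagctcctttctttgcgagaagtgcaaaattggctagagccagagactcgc
Ciart promoter, chr3:95882179-95882478, minus strand: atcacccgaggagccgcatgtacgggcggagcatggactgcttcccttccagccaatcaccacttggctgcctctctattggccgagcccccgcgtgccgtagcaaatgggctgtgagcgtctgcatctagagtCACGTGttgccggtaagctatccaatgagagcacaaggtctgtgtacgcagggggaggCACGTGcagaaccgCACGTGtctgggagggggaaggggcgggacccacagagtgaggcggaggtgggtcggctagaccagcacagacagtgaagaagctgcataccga
Nr1d1 promoter, chr11:98775328-98775627, minus strand: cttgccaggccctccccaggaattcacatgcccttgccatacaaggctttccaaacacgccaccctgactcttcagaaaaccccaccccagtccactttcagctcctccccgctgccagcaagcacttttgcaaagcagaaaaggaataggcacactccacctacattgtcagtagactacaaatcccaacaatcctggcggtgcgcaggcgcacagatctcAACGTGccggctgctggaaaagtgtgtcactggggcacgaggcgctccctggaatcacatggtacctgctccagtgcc
Nr1d2 promoter, chr14:18239057-18239356, minus strand: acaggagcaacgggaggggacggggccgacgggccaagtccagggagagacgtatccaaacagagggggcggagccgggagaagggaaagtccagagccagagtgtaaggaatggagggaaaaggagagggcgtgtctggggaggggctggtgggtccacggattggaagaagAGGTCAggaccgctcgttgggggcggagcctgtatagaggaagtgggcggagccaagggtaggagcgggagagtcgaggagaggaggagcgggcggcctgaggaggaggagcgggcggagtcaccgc

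Over all 32851 promoter windows in that table, CACGTG occurs in 7.15%, CACGTT in 4.68%, AGGTCA in 16.3% and TTATGTAA in 0.938%. Of the 22 clock genes listed, 17 had a window, with 26 windows in all because some genes have several. CACGTG was found in a window of 5 of these genes (Ciart, Per1, Cry1, Tef and Bhlhe41). That count is by gene, while the percentages above are by window, so they are not directly comparable. A match describes these letters in this window and is not evidence of binding.

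Dbp, a leucine-zipper transcription factor and a classic output of the clock, showed the largest decrease among the called genes. Its deposited values ran from 22.8 through a median of 26.9 to 33.2 in 5 mpi AD libraries, against 47.1, 50.7 and 57.7 in 3 mpi AD libraries. No library of 5 mpi reached the lowest of 3 mpi. The means were 27.1 ± 3.48 (SD, n = 7) and 51.1 ± 3.65 (SD, n = 6), a log2 fold change of -0.90 (SE 0.085; limma, adjusted p = 2.21e-08). Dbp lies on chromosome 7 at 45705088 to 45710203 (GRCm38).

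Ciart, also called Chrono, encodes a repressor of CLOCK and BMAL1. Its values had a lowest, median and highest of 4.23, 5.21 and 5.92 in 5 mpi AD libraries, against 7.69, 8.91 and 10.7 in 3 mpi AD libraries. Here too the groups did not overlap. The log2 fold change was -0.69 (SE 0.098; limma, adjusted p = 2.83e-04). Ciart lies on chromosome 3 at 95878503 to 95882251, and its longest transcript matches the gene model Gm9176 at 96.7% identity over 58.1% of its length, so part of its reads could have been split by the counting.

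Nr1d1 and Nr1d2 encode REV-ERB alpha and REV-ERB beta, the haem-sensing receptors that close the second loop of the clock. Nr1d1 lay between 47.9 and 59.8 in 5 mpi AD libraries (median 55.5), against 73.7 to 80.6 in 3 mpi AD libraries (median 75.4). Nr1d2 lay between 105 and 123 in 5 mpi AD libraries (median 117), against 134 to 159 in 3 mpi AD libraries (median 146). Neither gene's groups overlapped, and the log2 fold changes were -0.46 for Nr1d1 (SE 0.071; limma, adjusted p = 0.00108) and -0.35 for Nr1d2 (SE 0.057; limma, adjusted p = 0.00224). Nr1d1 lies on chromosome 11 at 98767932 to 98775333 and Nr1d2 on chromosome 14 at 18204054 to 18239127.

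These were 4 of the 22 clock genes tested, against 0.0498% of all genes that passed lower, and no clock gene passed higher. With the mean level of processed pseudogenes, described below, as a covariate, Dbp alone of the 4 passed, and Ciart had -0.60, Nr1d1 -0.49 and Nr1d2 -0.33 (limma, adjusted p = 0.117, 0.0882 and 0.146). The list's median log2 fold change was -0.03, close to the median of all genes tested at -0.00, and 8 of the 22 were positive. At an unadjusted p under 0.05 (limma), 9 of the 22 were lower and 2 higher, against 4.24% and 4.87% of all genes. The decrease was thus seen in part of the list and not in its median. Per1, a repressor of the loop, had a log2 fold change of -0.31 (45.8 ± 3.88 in 5 mpi AD libraries against 56.8 ± 5.29 in 3 mpi AD libraries; limma, adjusted p = 0.224). Per2, its paralog, had -0.21 (adjusted p = 0.594) and Npas2, a paralog of Clock, -0.22 (adjusted p = 0.321). Arntl, which REV-ERB receptors repress, had the highest value of the list, 0.21 (36.8 ± 4.15 against 31.6 ± 2.67; limma, adjusted p = 0.404). Tef, a relative of Dbp, had 0.09, Bhlhe41, a helix-loop-helix repressor of the loop, -0.13, and Per3 -0.01, and none of these passed.

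**Figure D1:**
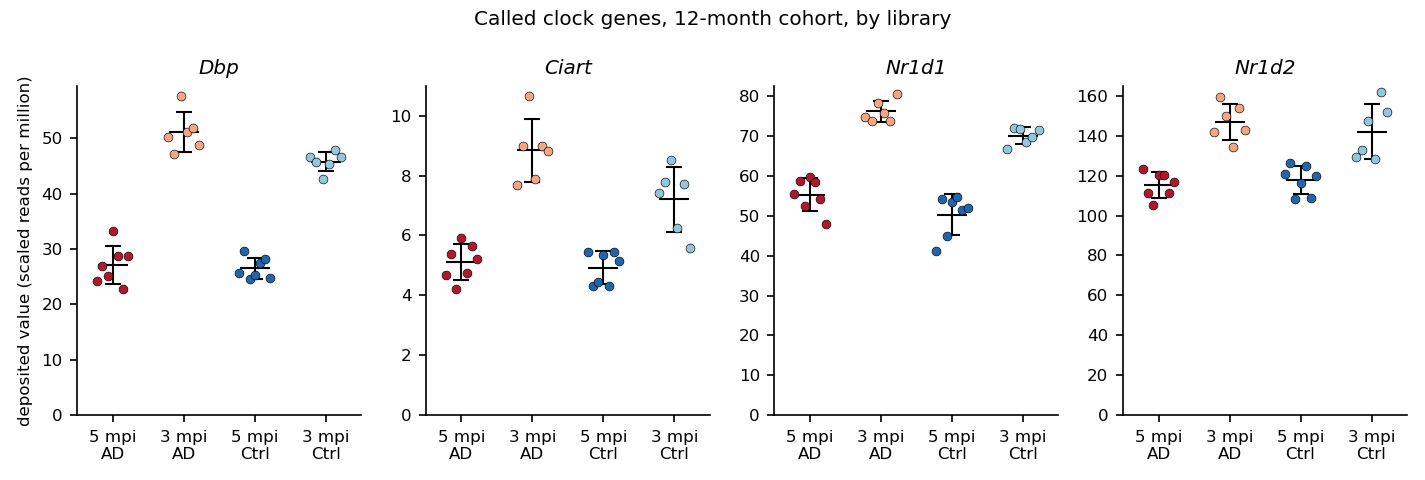
Deposited values (scaled RPM, vertical axis) of the 4 called clock genes in each library of the 12-month cohort at 5 and 3 mpi, after AD extract (red tones) and Ctrl extract (blue tones). Points are libraries, and bars are the mean ± SD of 7, 6, 7 and 6 libraries. For all 4 genes the 5 mpi AD libraries lie below the 3 mpi AD libraries, and the Ctrl libraries lie in the same order.

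The Ctrl libraries address whether the step was tied to AD extract. In them, 43 genes differed between 5 and 3 mpi (0.214%), 25 higher (0.124%) and 18 lower (0.0896%), 1968 passed at an unadjusted p under 0.05 (9.8%), and all 4 clock genes were among the lower ones. Dbp averaged 26.5 ± 1.94 in 5 mpi Ctrl libraries (SD, n = 7) against 45.8 ± 1.77 in 3 mpi Ctrl libraries (SD, n = 6), a log2 fold change of -0.77 (limma, adjusted p = 1.35e-06). The log2 fold change in Ctrl libraries was -0.48 for Nr1d1 (adjusted p = 7.24e-04), -0.47 for Ciart (adjusted p = 0.0220) and -0.26 for Nr1d2 (adjusted p = 0.0273). Bhlhe41 was the fifth clock gene that passed in Ctrl libraries, at -0.29 (adjusted p = 0.00949).

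The test of the difference between the AD step and the Ctrl step passed for none of these genes. The difference was -0.13 for Dbp (95% confidence interval -0.37 to 0.12), -0.22 for Ciart (-0.50 to 0.06), 0.02 for Nr1d1 (-0.19 to 0.22) and -0.08 for Nr1d2 (-0.25 to 0.08), with an adjusted p of 0.999 for each (limma). At an unadjusted p under 0.05 the difference passed for 868 genes (4.32%). The 4 genes fell in both extracts, and a p that misses the threshold does not show that they fell equally.

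**Figure D2:**
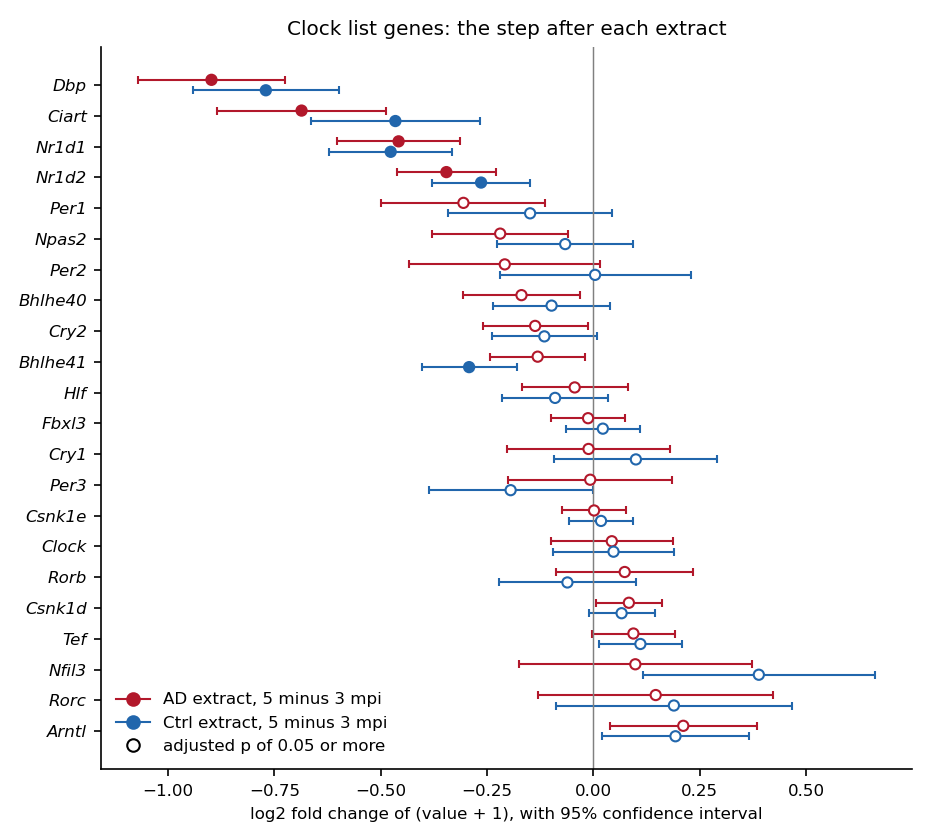
Log2 fold change, 5 minus 3 mpi (horizontal axis, with its 95% confidence interval), of the 22 clock genes tested, in AD libraries (red) and Ctrl libraries (blue). Filled points passed at an adjusted p under 0.05, and Dbp, Ciart, Nr1d1 and Nr1d2 are filled in both colours.

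Across all 3 times the 4 genes peaked at 3 mpi in the 12-month AD libraries. The medians at 1, 3 and 5 mpi were 26.6, 50.7 and 26.9 for Dbp, 4.52, 8.91 and 5.21 for Ciart, 53.5, 75.4 and 55.5 for Nr1d1, and 117, 146 and 117 for Nr1d2. The Ctrl medians of Dbp also peaked at 3 mpi, with 30.3, 46.1 and 25.6. In AD libraries of the 3-month cohort, from a table scaled separately, the medians of Dbp at 1, 3 and 5 mpi were 21.2, 55.6 and 51.6 (n = 6, 5 and 3), so the younger cohort had its lowest median at 1 mpi and not at 5 mpi. Nr1d1 there had 54.3, 67.2 and 78.8. The 3-month values were not tested against the 12-month values.

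A pair of cold-induced genes, chosen with their values known, did not pass in AD libraries. Rbm3, a cold-induced RNA-binding protein, averaged 65.7 ± 10.5 in 5 mpi AD libraries against 89.2 ± 22.4 in 3 mpi AD libraries, a log2 fold change of -0.41 (limma, adjusted p = 0.362), and -0.71 in Ctrl libraries (adjusted p = 0.0326). Cirbp, another cold-induced RNA-binding protein, had -0.37 in AD (adjusted p = 0.299) and -0.56 in Ctrl libraries (adjusted p = 0.0527). The test of the difference between the steps passed for neither (adjusted p = 0.999).

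Of the 21 genes of the unfolded protein response tested, none passed in AD libraries and 2 passed higher in Ctrl libraries, against 0.144% of all genes higher in AD and 0.124% in Ctrl libraries. The test of the difference between the steps passed for none of the 21. Calr, an endoplasmic reticulum chaperone that binds calcium, averaged 425 ± 35.9 in 5 mpi AD libraries against 364 ± 27.0 in 3 mpi AD libraries, a log2 fold change of 0.22 (limma, adjusted p = 0.0843), and 0.29 in Ctrl libraries (adjusted p = 0.00749). Pdia6, a disulfide isomerase, had 0.21 in AD (adjusted p = 0.230) and 0.39 in Ctrl libraries (adjusted p = 0.00298). Hspa5, the chaperone BiP, had 0.29 and 0.42 (adjusted p = 0.361 and 0.0954), and Hsp90b1, its partner GRP94, 0.18 and 0.22 (adjusted p = 0.218 and 0.0775). The list's median was 0.10 in AD and 0.15 in Ctrl libraries, against -0.00 over all genes in each. Of the other genes called in Ctrl libraries, Mdga1, a cell-adhesion protein of synapses, had 0.20 in AD libraries, and Zfp46, a zinc-finger protein, -0.32, and neither passed there (adjusted p = 0.194 and 0.139).

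In both extracts 6 genes passed, which is 15.4% of the AD calls and 13.95% of the Ctrl calls: the 4 clock genes, Glt8d2 and Hecw2. Of the 43 genes called in Ctrl libraries, 42 had the same sign in AD libraries, and of the 39 called in AD libraries, 27 had the same sign in Ctrl libraries. Of the 12 AD calls with the opposite sign, 10 were processed pseudogenes. Over all 20084 genes the log2 fold changes of both steps had a Pearson r of 0.226, a description across genes, which are not independent replicates.

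Many of the genes higher at 5 mpi have near-identical copies. Processed pseudogenes, which are old reverse-transcribed copies of messenger RNAs inserted elsewhere in the genome, made up 13 of the 39 calls, 12 of them higher, against 805 of the 20084 genes tested (4.01%). A wider search asked which genes have a longest transcript that matches a transcript of another locus at 95% identity or more over at least 50% of its length: 6.195% of the 19677 genes searched did, and 15 of the 29 higher calls but 1 of the 10 lower calls. Of genes with such a copy 1.31% passed, and of genes without one 0.125%. How the authors' counting assigned reads that match several loci is not given in the sources used here, so the level of each of these genes is uncertain.

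Gm13456 was the one gene, of 20084, whose AD step differed from its Ctrl step (0.00498%). It is a processed pseudogene of Eef1a1, which encodes the elongation factor that brings aminoacyl-tRNA to the ribosome, on chromosome 2 at 40555752 to 40557116. Over 1361 aligned coding bases the copies differ at 19. A 60-base stretch, chosen because no other of that length held more differences, is printed with the differing bases in capitals. They are A938C, C947T and A952T, counted from 1 at the Eef1a1 coding start, the Eef1a1 base first. Sequences are from GENCODE vM21 transcripts on GRCm38.
Gm13456, chr2:40556619-40556678, plus strand: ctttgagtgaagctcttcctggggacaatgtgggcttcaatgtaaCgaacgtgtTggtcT
Eef1a1 coding bases 893 to 952, chromosome 9, minus strand: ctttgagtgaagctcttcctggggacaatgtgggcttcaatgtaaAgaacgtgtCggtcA

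Gm13456 had 10.2, 10.5, 7.95, 9.98, 10.7, 6.71 and 7.44 in 5 mpi AD libraries 1 to 7, against 6.31, 6.97, 5.89, 7.64, 6.31 and 6.13 in 3 mpi AD libraries 1 to 6. Libraries 1 to 5 of 5 mpi lay above all of 3 mpi, and libraries 6 and 7 lay within its range. The log2 fold change was 0.40 in AD (SE 0.090; limma, adjusted p = 0.0426) and -0.36 in Ctrl libraries (adjusted p = 0.0763), and the difference of the steps was 0.77 (adjusted p = 0.0118). Eef1a1 itself averaged 2655 in 5 mpi AD libraries and 2598 in 3 mpi AD libraries, a log2 fold change of 0.03 (adjusted p = 0.883).

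For most of the other called pseudogenes too, the copy rose and the parent gene did not pass. Vcp-rs, a copy of the ATPase gene Vcp at 99.1% identity, had 4.67, 4.59, 3.58, 4.60, 5.51, 2.87 and 2.98 in 5 mpi AD libraries 1 to 7, against 2.13 to 3.04 in 3 mpi AD libraries. Libraries 6 and 7 of 5 mpi again lay within the range of 3 mpi. Its log2 fold change was 0.48 (limma, adjusted p = 0.0252), while Vcp had 0.00 (adjusted p = 0.994). Morf4l1-ps1 had 0.41, Rpl14-ps1 0.36 and Apoo-ps 0.33, and of the gene models Gm6180, a copy of the cofilin gene Cfl1, had 0.75, Gm15459, a copy of the chaperone gene Hspa8, 0.41, and Gm1821, a copy of the ubiquitin gene Ubb, 0.36. Of the 13 calls that matched a protein-coding gene, 12 matched one that did not pass, with log2 fold changes from -0.09 to 0.11 and adjusted p from 0.515 to 0.994.

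The exception was Rpl12, a protein of the large ribosomal subunit, whose pseudogene Gm10275 matches it at 100% identity over 99.8% of the pseudogene's length. Gm10275 had 7.86, 8.86, 2.31, 6.89, 7.09, 2.40 and 2.28 in 5 mpi AD libraries 1 to 7, against 1.49 to 2.33 in 3 mpi AD libraries, so that libraries 1, 2, 4 and 5 stood apart from the other 3 and from all of 3 mpi. Its log2 fold change was 0.99 (SE 0.22; limma, adjusted p = 0.0426). Rpl12 lay between 94.2 and 123 in 5 mpi AD libraries (median 114), against 68.0 to 102 in 3 mpi AD libraries (median 73.3), with library 2 of 3 mpi alone above 75.7, and its log2 fold change was 0.56 (adjusted p = 0.0425). At 1 mpi Rpl12 lay at 116 to 159 in AD libraries. In 3 mpi Ctrl libraries Rpl12 split into libraries 1, 2 and 4 at 121 to 140, those with high Y-linked genes, and libraries 3, 5 and 6 at 67.3 to 71.4. With a sex term in the fit the log2 fold change of Rpl12 in AD libraries was 0.57 (limma, adjusted p = 0.0381). Of the 27 ribosomal protein genes listed, which do not include Rpl12, none passed, against 0.194% of all genes, 5 were positive and the median was -0.04.

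Of the 723 genes annotated as plain processed pseudogenes, 517 were positive with a median of 0.05 in AD libraries, 9 passed higher and 1 lower, against 0.144% and 0.0498% of all genes, and in Ctrl libraries 292 were positive with a median of -0.02 and none passed. Their mean log2 level also set libraries apart. It was 0.641, 0.632, 0.637 and 0.638 in libraries 1, 2, 4 and 5 of 5 mpi AD, 0.550 to 0.580 in the other 3 libraries of that group, and 0.519 to 0.584 in 3 mpi AD libraries. In Ctrl libraries it was 0.514 to 0.538 at 5 mpi and 0.524 to 0.565 at 3 mpi. At 1 mpi it was 0.571 to 0.622 in AD and 0.568 to 0.579 in Ctrl libraries. The AD medians at 1, 3 and 5 mpi were 0.577, 0.531 and 0.632, so the lowest was at 3 mpi. Libraries 1, 2, 4 and 5 were also the 4 libraries of 5 mpi AD with high Xist, and with a sex term in the fit 40 genes passed, 38 of them among the 39. Sex and the level of these libraries cannot be told apart within 5 mpi AD. In 3 mpi Ctrl the order was the reverse, with 0.555 to 0.565 in libraries 1, 2 and 4 (high Y-linked genes) and 0.524 to 0.539 in libraries 3, 5 and 6 (high Xist). The sex term, shared by all groups, cannot absorb a difference that changes direction between groups. With libraries 1, 2, 4 and 5 of 5 mpi AD left out, a step chosen after seeing the data, 3 libraries of that group remained. In that fit 7 genes passed, 1 higher and 6 lower. Of these, 5 were among the 39: Dbp, Ciart, Nr1d1, Nr1d2 and Psrc1. With fewer libraries it is harder for any gene to pass, so a lost call need not mean a smaller fold change. Glt8d2 had 0.40 there (limma, adjusted p = 0.147), while Gm10275 had 0.20 (adjusted p = 0.938). The pseudogene level was then used as a covariate, also chosen after seeing the data because it set libraries 1, 2, 4 and 5 apart. It is made from some of the called genes. With it 4 genes passed, all lower, and Dbp and C1qbp were the 2 shared with the 39.

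**Figure D3:**
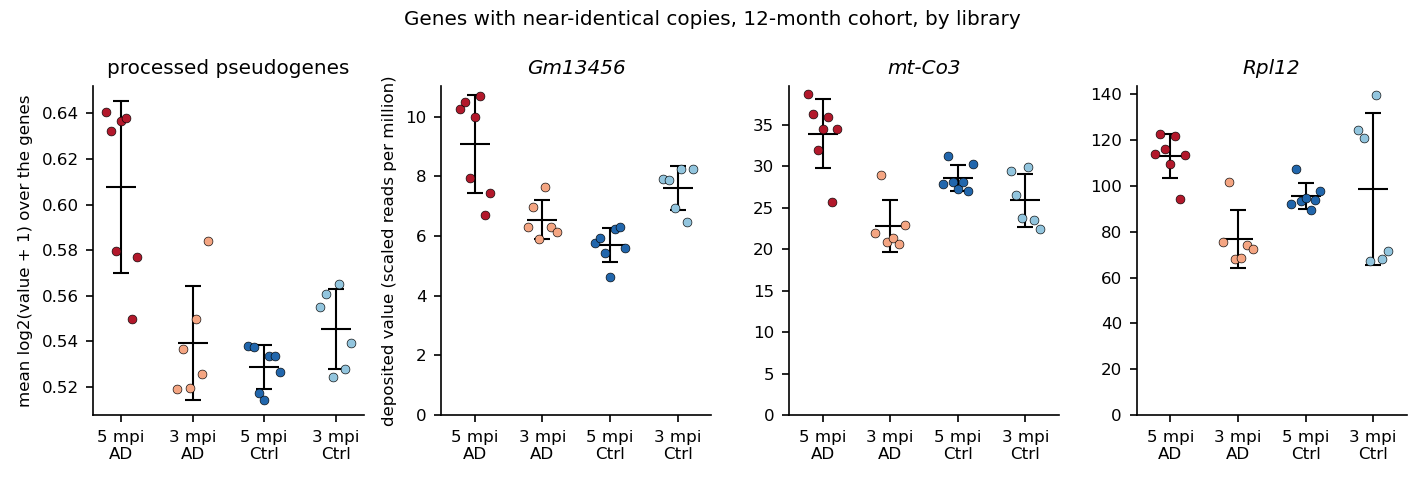
The mean log2(value + 1) of the 723 processed pseudogenes tested (first panel; its axis does not start at 0) and the deposited values of Gm13456, mt-Co3 and Rpl12, in each library of the 12-month cohort at 5 and 3 mpi. Points are libraries and bars the mean ± SD. In the first panel 4 of the 7 libraries of 5 mpi AD lie above 0.63, and no other library of these groups exceeds 0.584.

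The higher genes also included a pair of mitochondrially encoded ones. All 15 in the list, its protein-coding genes and ribosomal RNAs, lay above 0 on the log2 scale, with a median of 0.18 against -0.00 over all genes, and 2 passed, against 0.144% of all genes. In Ctrl libraries 9 of 15 were positive, the median was 0.04 and none passed. The 2 that passed have an annotated copy of nearly their whole transcript at 100% identity. mt-Co3, a core subunit of cytochrome c oxidase, had 38.7, 36.3, 32.0, 34.5, 35.9, 25.7 and 34.4 in 5 mpi AD libraries 1 to 7, against 21.9, 28.9, 20.9, 21.3, 20.6 and 22.9 in 3 mpi AD libraries 1 to 6. Library 6 of 5 mpi was the lowest of its group, and library 2 of 3 mpi, the highest of its own, lay above it. The log2 fold change was 0.56 (SE 0.088; limma, adjusted p = 0.00115). mt-Co2, another core subunit of that enzyme, had 0.45 (24.2 ± 4.29 in 5 mpi AD libraries against 17.5 ± 3.83 in 3 mpi AD libraries; adjusted p = 0.0426). In 5 mpi AD libraries mt-Co3 averaged 33.9, against 21310 for mt-Co1, 7856 for mt-Cytb and 4049 for mt-Nd4, which also has a copy at 100% identity. How reads matching several loci were counted is not given. The fold changes of mt-Co3 and mt-Co2 may therefore not be those of their whole transcript levels. Other mitochondrial genes with a copy at 100% identity did not pass: mt-Atp6, a subunit of ATP synthase, had 0.33 (adjusted p = 0.157) and mt-Nd4 and mt-Nd4l, subunits of complex I, 0.13 and 0.28 (adjusted p = 0.479 and 0.206).

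Genes of the mitochondrial genome with no such copy did not pass either. mt-Rnr1, the small ribosomal RNA, averaged 2706 ± 250 in 5 mpi AD libraries against 2333 ± 161 in 3 mpi AD libraries, a log2 fold change of 0.21 (limma, adjusted p = 0.404). mt-Cytb, the mitochondrial subunit of complex III, had 0.09 (adjusted p = 0.708) and mt-Nd1, a subunit of complex I, 0.02 (adjusted p = 0.973). mt-Co1, which has a copy at 97.6% identity, had 0.07 (adjusted p = 0.844). Of the 24 nuclear genes of oxidative phosphorylation tested, none passed, against 0.194% of all genes, 3 were positive and the median was -0.04. With libraries 1, 2, 4 and 5 of 5 mpi left out, which leaves 3 libraries there, mt-Co3 had 0.42 (limma, adjusted p = 0.274). In that fit mt-Co2 had 0.22 (adjusted p = 0.795).

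Of the called genes whose longest transcript has no such copy over at least 50% of its length, 14 were higher, Rpl12 among them, and 9 lower at 5 mpi. Glt8d2, a member of a glycosyltransferase family on chromosome 10, had 20.02, 22.003 and 23.3 as lowest, median and highest value in 5 mpi AD libraries, against 14.8, 15.8 and 19.8 in 3 mpi AD libraries. The groups did not overlap, and the log2 fold change was 0.37 in AD (SE 0.069; limma, adjusted p = 0.0113) and 0.41 in Ctrl libraries (adjusted p = 0.00374). Clpb, a mitochondrial protein disaggregase on chromosome 7, lay at 57.4 to 63.1 (median 61.2) in 5 mpi AD libraries, against 46.9 to 57.3 (median 51.8) in 3 mpi AD libraries. Its groups met without overlapping, and its log2 fold change was 0.22 (SE 0.041; adjusted p = 0.0113), against 0.17 in Ctrl libraries (adjusted p = 0.0694). At 1 mpi, AD libraries had 55.8 to 63.4 for Clpb and 16.6 to 21.5 for Glt8d2.

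Psrc1, a microtubule-associated protein of the mitotic spindle, rose by a log2 fold change of 0.44 (10.9 ± 1.44 in 5 mpi AD libraries against 7.68 ± 0.440 in 3 mpi AD libraries; limma, adjusted p = 0.0252). Library 2 of 5 mpi, at 7.90, was the only one within the range of 3 mpi. Rxfp3, the receptor for the neuropeptide relaxin-3, rose by 0.54 (9.82 ± 1.28 against 6.63 ± 1.72; adjusted p = 0.0425), with library 6 of 3 mpi, at 3.26, far below the next at 6.72. Frem2, an extracellular matrix protein of basement membranes, rose by 0.51 (6.03 ± 1.17 against 3.93 ± 0.842; adjusted p = 0.0425), and its groups overlapped. At 1 mpi Frem2 lay at 4.94 to 7.03 in AD libraries.

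Smaller increases were found for Akt2, a kinase of insulin signalling (0.24; 89.5 ± 8.51 in 5 mpi AD libraries against 75.3 ± 4.01 in 3 mpi AD libraries; limma, adjusted p = 0.0255), and for Ccdc66, a protein of centrosomes and cilia (0.26; adjusted p = 0.0247). Gpld1, a phospholipase that releases GPI-anchored proteins, rose by 0.26 (adjusted p = 0.0425), and Zeb2, a zinc-finger transcription factor needed for myelination by oligodendrocytes, by 0.22 (343 ± 16.4 against 294 ± 19.5; adjusted p = 0.0488). Dop1b and Cog4, which act in membrane traffic, both rose by 0.20 (adjusted p = 0.0440 and 0.0488) and are named to complete the group. None of these 6 genes passed in Ctrl libraries, where their log2 fold changes were between 0.11 and 0.14, and the difference of the steps passed for none (adjusted p = 0.999 for each). Cog4 lay at 50.15 to 56.05 in 1 mpi AD libraries, 41.6 to 50.1 at 3 mpi and 49.7 to 55.1 at 5 mpi. Zeb2 at 1 mpi, with 268 to 326 in AD libraries, lay nearer to its 3 mpi values.

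Beside the clock genes, 4 protein-coding genes above the level used for naming fell. Hecw2, a ubiquitin ligase, had a log2 fold change of -0.31 (33.5 ± 2.77 in 5 mpi AD libraries against 41.9 ± 4.24 in 3 mpi AD libraries; limma, adjusted p = 0.0480) and -0.38 in Ctrl libraries (adjusted p = 0.00855). Cnih3, an auxiliary subunit of AMPA receptors, had -0.29 (49.9 ± 5.07 against 60.8 ± 4.21; adjusted p = 0.0488). B4galnt4, an N-acetylgalactosaminyltransferase, had -0.25 (53.2 ± 3.33 against 63.3 ± 3.34; adjusted p = 0.0425). C1qbp, a protein of the mitochondrial matrix, had -0.19 (43.7 ± 2.36 against 50.02 ± 1.37; adjusted p = 0.0425), and of the 4 it alone had groups that did not overlap. Dmrtb1 was also lower and Slc5a10 higher, both at means under 1 in each group.

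**Figure D4:**
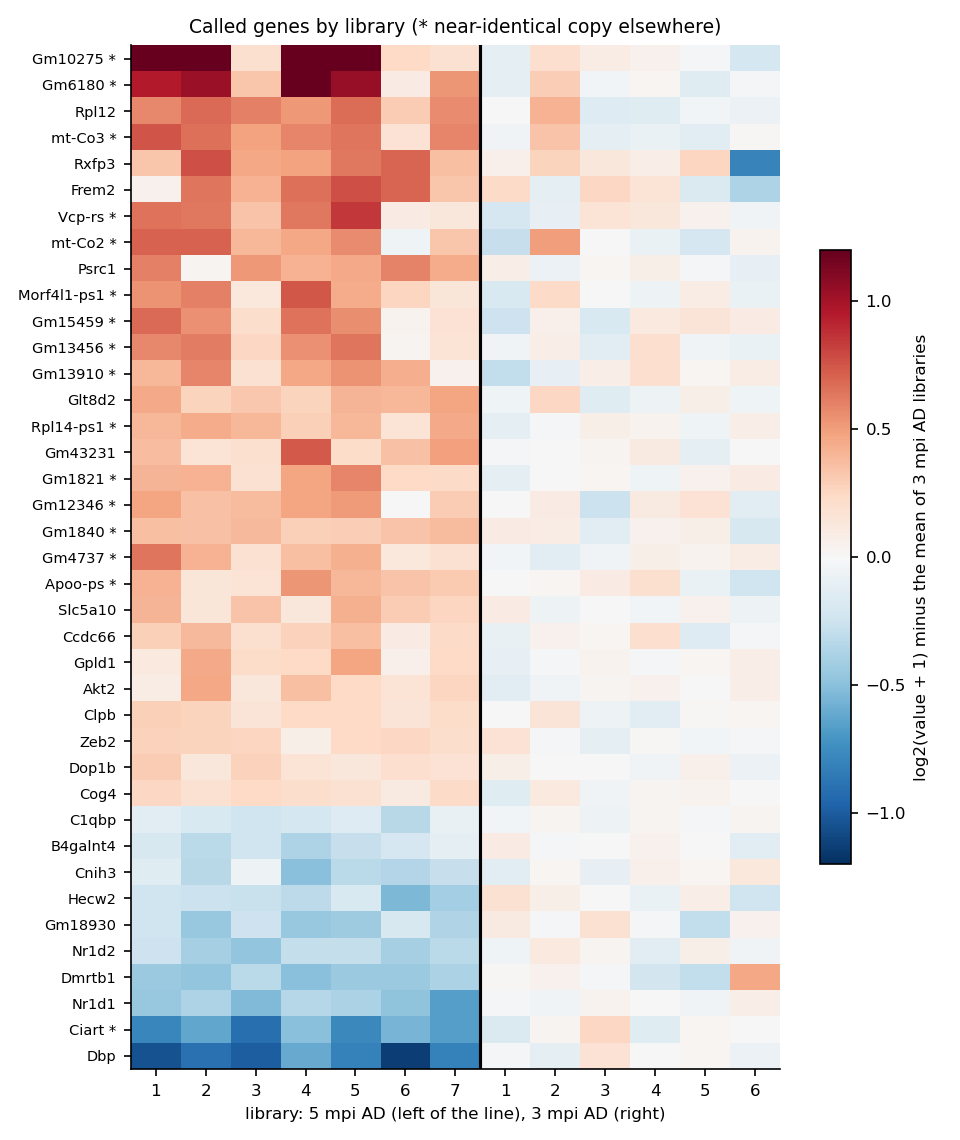
Each called gene (rows, from the highest to the lowest log2 fold change) in each library (columns, 5 mpi AD left of the line and 3 mpi AD right of it), as log2(value + 1) minus the mean of the 3 mpi AD libraries; colours are capped at 1.2 either way, and a star marks a near-identical copy elsewhere. Gm10275 and Gm6180 are darkest in libraries 1, 2, 4 and 5 of 5 mpi, while Dbp is blue in all 7.

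The count of 39 was lower by over 1.5 times without any 1 of 10 of the 13 libraries. Leaving out libraries 1 to 6 of 3 mpi AD in turn gave 11, 19, 17, 18, 18 and 16 calls. Leaving out libraries 1, 2, 4 and 5 of 5 mpi AD gave 14, 12, 11 and 8 calls, and leaving out libraries 3, 6 and 7 gave 42, 48 and 33. Dbp, Ciart, Nr1d1, Nr1d2, Clpb, Glt8d2, mt-Co3 and Gm1821 passed in all 13 of these fits. Gm1840 and Dop1b passed in none. The other called genes lay between, for example Hecw2, Cnih3 and C1qbp with 1 fit each. Zeb2, Cog4 and Rpl12 passed in 2 each and B4galnt4 in 4.

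The genes named here for their ties to tau, amyloid and astrocytes did not pass. Mapt, which encodes tau, averaged 473 ± 23.3 in 5 mpi AD libraries against 459 ± 29.6 in 3 mpi AD libraries, a log2 fold change of 0.05 (95% confidence interval -0.04 to 0.13; limma, adjusted p = 0.824). App, the amyloid precursor, had 0.05 (-0.02 to 0.13; adjusted p = 0.731) and Apoe, the main lipid carrier of astrocytes, -0.08 (-0.24 to 0.08; adjusted p = 0.826). Gfap, the intermediate filament of astrocytes, had -0.02 (-0.24 to 0.20; adjusted p = 0.979). All 4 intervals lay between -0.24 and 0.20. In bulk tissue, fewer cells of a type and less RNA per cell cannot be told apart.

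Genes of complement and activated microglia did not pass either, and some had wide intervals. C3, the central complement component, averaged 17.8 ± 6.36 in 5 mpi AD libraries against 19.1 ± 6.92 in 3 mpi AD libraries, a log2 fold change of -0.13 with an interval from -0.71 to 0.44 (limma, adjusted p = 0.936). Trem2, a lipid-sensing receptor, had -0.09 (-0.29 to 0.11; adjusted p = 0.858), Clec7a, a pattern receptor, -0.25 (-0.77 to 0.28; adjusted p = 0.842), and Cst7, a protease inhibitor, -0.10 (-0.53 to 0.34; adjusted p = 0.938). C4b, another complement component, had 0.18, Itgax 0.11, Cd68 -0.04, Aif1 0.04, Serpina3n, a secreted serpin made by astrocytes, 0.06 and Pcsk6, a proprotein convertase, 0.13, and none passed (adjusted p from 0.651 to 0.967).

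No gene of the glial and disease lists passed, against 0.194% of all genes. At that share a list of this length would rarely hold a call, so none passing says little about these genes. Of 30 genes of disease-associated microglia none passed, 8 were positive and the median was -0.05, and it was also -0.05 in Ctrl libraries. Gpnmb, a glycoprotein of lipid-loaded phagocytes, had -0.62 (14.9 ± 4.08 in 5 mpi AD libraries against 25.0 ± 12.1 in 3 mpi AD libraries; limma, adjusted p = 0.326). Of 17 genes of homeostatic microglia 13 were positive with a median of 0.06, among them Fcrls at 0.21 (adjusted p = 0.404) and Cx3cr1, the fractalkine receptor, at 0.15 (adjusted p = 0.526). Of 30 reactive astrocyte genes 16 were positive with a median of 0.01, and of 18 complement genes 15 were positive with a median of 0.07. Of 30 interferon-response genes 6 were positive with a median of -0.10, and of 28 genes of tau and its modifying enzymes 13 were positive with a median of -0.02. 

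Lists of neurons and of hippocampal fields held no gene that passed either, against 0.194% of all genes, but several had opposite medians in AD and Ctrl libraries. Of 13 dentate granule cell genes 11 were positive with a median of 0.18 in AD libraries, against 2 positive and -0.17 in Ctrl libraries. C1ql2, a synaptic organiser of mossy fibres, had 0.54 in AD (51.1 ± 7.40 in 5 mpi AD libraries against 36.6 ± 12.4 in 3 mpi AD libraries; limma, adjusted p = 0.390). Of 9 CA1 pyramidal cell genes 1 was positive with a median of -0.14 in AD libraries and 0.05 in Ctrl libraries. The test of the difference between the steps passed for no gene of the dentate or CA1 list (limma). The summed level of the dentate list was 505 to 783 (median 601) in 5 mpi AD libraries against 378 to 689 (median 640) in 3 mpi AD libraries, so its median ran opposite to the list's median fold change. The summed level of the CA1 list was 635 to 941 (median 771) against 784 to 919 (median 836). Both overlapped, and whether the dissected portion differed was not tested.

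Genes that follow neuronal activity held none that passed, against 0.194% of all genes. Of 21 immediate early genes 4 were positive, with a median of -0.10 in AD and 0.10 in Ctrl libraries, and Npas4, an activity-dependent transcription factor, had -0.44 (8.54 ± 2.88 in 5 mpi AD libraries against 11.7 ± 2.53 in 3 mpi AD libraries; limma, adjusted p = 0.594). Of 19 late activity-regulated genes 5 were positive with a median of -0.12, among them Nptx2, a secreted synaptic pentraxin, at -0.27 (adjusted p = 0.365). Of 13 oligodendrocyte precursor genes 10 were positive with a median of 0.14, led by Gpr17, a receptor of cells on the way to myelination, at 0.32 (43.8 ± 4.60 against 34.9 ± 5.17; adjusted p = 0.0922). Of 22 myelin genes 14 were positive with a median of 0.02. Meningeal and fibroblast genes had a median of 0.16 in AD libraries (15 of 18 positive) and -0.18 in Ctrl libraries (1 of 18 positive), and their summed level was 416 to 617 in 5 mpi AD libraries and 297 to 590 in 3 mpi AD libraries. For the immediate early and the meningeal lists too, the test of the difference between the steps passed for no gene (limma). None of the remaining lists held a gene that passed in AD libraries (limma).

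**Figure D5:**
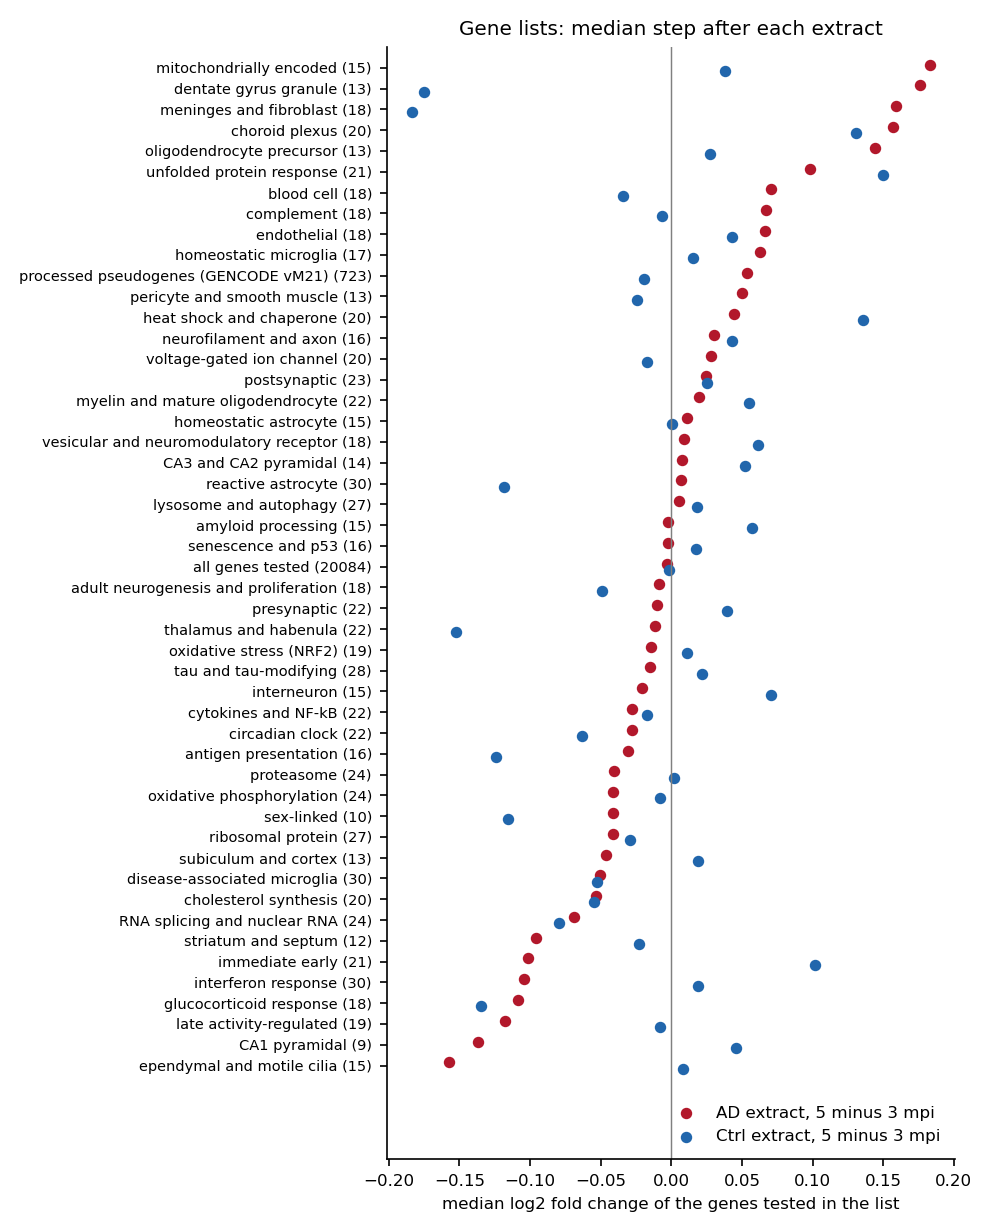
Median log2 fold change, 5 minus 3 mpi (horizontal axis), of the genes tested in each list (rows, with the number tested), in AD libraries (red) and Ctrl libraries (blue). The mitochondrially encoded list has the highest AD median, 0.18, and the row of all genes tested lies at -0.00 in both colours.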

How the data were processed

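Poly(A) RNA libraries from mouse hippocampus were grouped by their labels. The submitters' processing notes name GRCm38 as the build and edgeR, Picard and STAR as tools. The sources used here give no versions, annotation, counting rule or strand. The authors deposited a normalised signal for every gene, which the values show to be RPM divided by 1 factor per library. Dividing by the value of 1 read gave whole reads for 100% of values (tolerance 0.01 reads), which served for the filter and for count tests as alternatives.

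limma-trend 3.58.1 (R 4.3.3) was fitted to log2(deposited value + 1) over all 37 libraries of the 12-month cohort, 1 mean per group, after filterByExpr of edgeR 4.0.16 (20084 of 55421 genes), with Benjamini-Hochberg adjustment; fold changes understate low genes. DESeq2 1.42.0, other scalings, filters and covariates (sva 3.50.0 for a surrogate variable) were alternatives. On simulated counts for AD 5 minus 3 mpi over 20084 genes, 83% of genes changed by a log2 of 0.5 and 94% of those changed by 1 were recovered, with 10 false calls.

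Genes named were the 15 highest and 15 lowest called whose mean log2 value reached 1, gene models aside (up to 5 of these by p, here more where a copy is described), 5 each way in Ctrl, up to 4 members per list and fixed disease genes. Other called genes, the remaining clock and mitochondrial genes and the parents of copies are named to complete a group, with their values known. The comparison and the 47 gene lists were chosen with earlier results of these data known. Gene types and coordinates are from GENCODE vM21; copies were found by megablast over its transcripts. All pairs of replicates differed by more than sampling noise (lowest chi-square divided by its degrees of freedom 10.7).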

Additional observations from a re-analysis of the deposited data

Results flagged for a closer look

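In each group of 4 to 10 libraries, a library was singled out when its gap to the next, as a share of the group's range, passed Dixon's 95% critical value; 74 such tests were run, and chance gives about 1 in 20. In 5 mpi AD libraries, Zeb2 was low in library 4 (307, next 340), Psrc1 was low in library 2 (7.90, next 10.6) and Apoe was low in library 1 (1325, next 1660). In 3 mpi AD libraries, library 2 was high for Rpl12 (102, next 75.7), mt-Co2 (24.8, next 17.8) and mt-Co3 (28.9, next 22.9), Rxfp3 was low in library 6 (3.26, next 6.72), and App was high in library 1 (1890, next 1761). Gm13456 had a step after AD extract that differed from the step after Ctrl extract by 0.77 on the log2 scale, by a test of the difference itself (limma, adjusted p = 0.0118).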

How the results depend on the processing

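The calls after AD extract numbered 39 in the fit reported, 15 with upper-quartile scaling, 15 with no filter on low values, 25 by the quasi-likelihood test, 67 by DESeq2, 6 with only the groups compared in the fit, 64 with a surrogate variable, 4 with the pseudogene level as a covariate and 7 without AD libraries 1, 2, 4 and 5 of 5 mpi. Leaving out 1 library at a time gave 8 to 48. Fits that leave out libraries rest on fewer of them, which alone can lower a count. Of 1201 values of the called genes under alternatives, 687 stayed past the threshold, 514 did not and none reversed; Dbp passed in every alternative run. The clock calls after AD extract stayed at 4 in all alternatives except the pseudogene covariate, where Dbp alone passed (1 call), with log2 fold changes of -0.60 for Ciart, -0.49 for Nr1d1 and -0.33 for Nr1d2 (adjusted p = 0.117, 0.0882 and 0.146).

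After Ctrl extract the calls numbered 43 in the fit reported, 105 by DESeq2, 11 with only the groups compared, 119 with choroid plexus, 85 with myelin and 19 with thalamus and habenula genes as a covariate, 72 with a sex term and 112 with a surrogate variable. They ran from 20 to 68 with 1 library left out, being 24 without 3 mpi Ctrl library 1, 20 without library 4, 68 without library 5 and 28 without 5 mpi Ctrl library 5. Clock calls there, 5 in the fit reported, were 2 with only the groups compared, 2 with the thalamus and habenula covariate, and 3 to 5 with 1 library left out. The difference of the steps had 1 call, 4 with no filter, 2 by the quasi-likelihood test, 8 by DESeq2, 0 with only the groups compared, 0 without the 4 AD libraries (868 genes at an unadjusted p under 0.05 in the fit reported) and 1 to 2 with 1 library left out. With the pseudogene covariate it also had 1 call, but of another gene, whose AD step lay below its Ctrl step, and Gm13456 did not pass.

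The replicate numbers do not pair libraries: same-numbered 5 and 3 mpi AD libraries had correlations of their deviations from -0.30 to 0.21, and 0 of 6 correlated best with their own number. With the replicate block, 21 genes were called after AD extract, 23 after Ctrl extract, with 3 clock genes in Ctrl. For each of these changes the cause was not tested. Of the disease genes named, C3 and Clec7a had intervals wider than 1 log2 unit.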
